A study of Danio rerio with 12 samples.

Results

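Cone photoreceptors tell wavelengths apart by the opsin they make, and the results given here concern the red, blue and ultraviolet (UV) cone opsins of the adult zebrafish eye together with 3 transcription factors known for their part in the choice between cone types. The members were the 7 genes of the deposited table whose identifier equalled opn1lw1, opn1lw2, opn1sw2, opn1sw1, thrb, foxq2 or tbx2b, out of 37055 genes listed. All 7 passed the filter on low counts, as did 18984 genes in all. RNA was sequenced from the eyeballs of 12 zebrafish at 3 months of age, 6 of them wild type (WT) and 6 homozygous for a CRISPR/Cas9 frameshift in exon 1 of lrpap1, which encodes a chaperone of lipoprotein receptors and was studied as a gene of myopia. Each sample held both eyes of 1 fish, so the 6 samples of a genotype are separate animals. The mutants belong to 1 line with 1 allele, whose founder came from a zebrafish resource centre. The study speaks of wild-type siblings when it describes slower growth of the mutants. Whether the WT fish that were sequenced were siblings of the mutants is not stated.

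In zebrafish, each cone holds mainly one class of visual pigment, and the cones form a regular mosaic of red, green, blue and UV types. opn1lw1 and opn1lw2 encode red opsins, opn1sw2 the blue opsin and opn1sw1 the UV opsin. The thyroid hormone receptor encoded by thrb is needed for red cones, the forkhead factor foxq2 for blue opsin expression, and the T-box factor tbx2b for UV cones. thrb and tbx2b are also expressed outside cones, so that a level in a whole eye is a sum over cell types, and fewer cells of a type and less RNA per cell cannot be told apart in such samples.

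The blue and the red opsin genes lay side by side on chromosome 11 of GRCz11, all on the forward strand, and opn1sw1 and the regulators lay elsewhere. In the deposited table, opn1sw2 ran from 25472777 to 25475403, opn1lw1 from 25477633 to 25480037 and opn1lw2 from 25481101 to 25483191, an array of 10415 bases. The gap between the blue and the first red gene was 2229 bases, and that between the red genes was 1063 bases. The only other gene listed within the array was the microRNA gene mir726, at 25476099 to 25476185 on the reverse strand, which had 42 to 81 counts in the WT and 56 to 87 counts in the mutant samples. opn1sw1 was listed on chromosome 4 (13577665 to 13580318, reverse strand), thrb on chromosome 19 (17518055 to 17658190, reverse strand), foxq2 on chromosome 22 (20427170 to 20429374, forward strand) and tbx2b on chromosome 15 (27364398 to 27372102, forward strand). opn1lw1 and opn1lw2 are tandem copies, and reads that match both could have been split between them by the counting, so the balance between these genes is less certain than their sum.

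The total count was between 7988538 and 9829112 per WT sample and between 7996647 and 9780310 per mutant sample. The targeted gene lrpap1 was lower in the mutants, with a mean of 18.9 CPM against 27.1 CPM (counts per 1000000 after TMM scaling, edgeR's correction for differing RNA make-up). The eye identity of the samples was clear from summed marker levels, with rod genes at 25790 to 38482 CPM in WT and 24161 to 37602 CPM in mutant eyes and cone genes at 17866 to 25374 CPM and 15587 to 21820 CPM. None of the 8 cone and none of the 13 rod markers tested passed an adjusted p of 0.05 in the quasi-likelihood test of edgeR, at any fold. WT sample 3 stood apart, because the summed level of its 13 lens markers was 126 CPM against 11149 to 23011 CPM in the other WT and 10512 to 13079 CPM in the mutant samples, and the fold changes, shares, ratios and correlations of the members are also given without it. At an adjusted p under 0.05 and any fold, 6.92% of all genes tested were higher and 4.27% lower in the mutants. By the same measure, 4 of the 7 leukocyte markers tested were higher, with sums of 627 to 1364 CPM against 429 to 933 CPM in WT, and 3 of the 8 cornea and skin epithelium markers were higher and 1 lower. Lower were 2 of the 5 erythrocyte, 1 of the 9 skeletal muscle, 4 of the 9 bipolar and ganglion cell and 1 of the 6 retinal pigment epithelium markers. The part of these cell types in the results below was not tested.

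A gene was called when its Benjamini-Hochberg adjusted p was under 0.05 and the size of its log2 fold change was above 1. The quasi-likelihood test of edgeR called 864 genes, 4.55% of those tested, with 3.68% higher and 0.874% lower in the mutants, and none of the 7 was among them. DESeq2 and limma also called 0 of the 7. At an adjusted p under 0.05 and any fold, only tbx2b passed in edgeR, where 11.2% of all genes did, so 1 of 7 is near that background. An unadjusted p under 0.05 was reached by 3 of the 7, opn1sw1, foxq2 and tbx2b, all with negative fold changes, against 27.2% of all genes. The median log2 fold change of the 7 genes was -0.12 and that of all genes tested was -0.020. These genes were thus not among the strongly changed genes of the mutant eye, and the differences described below are small ones.

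**Figure D1:**
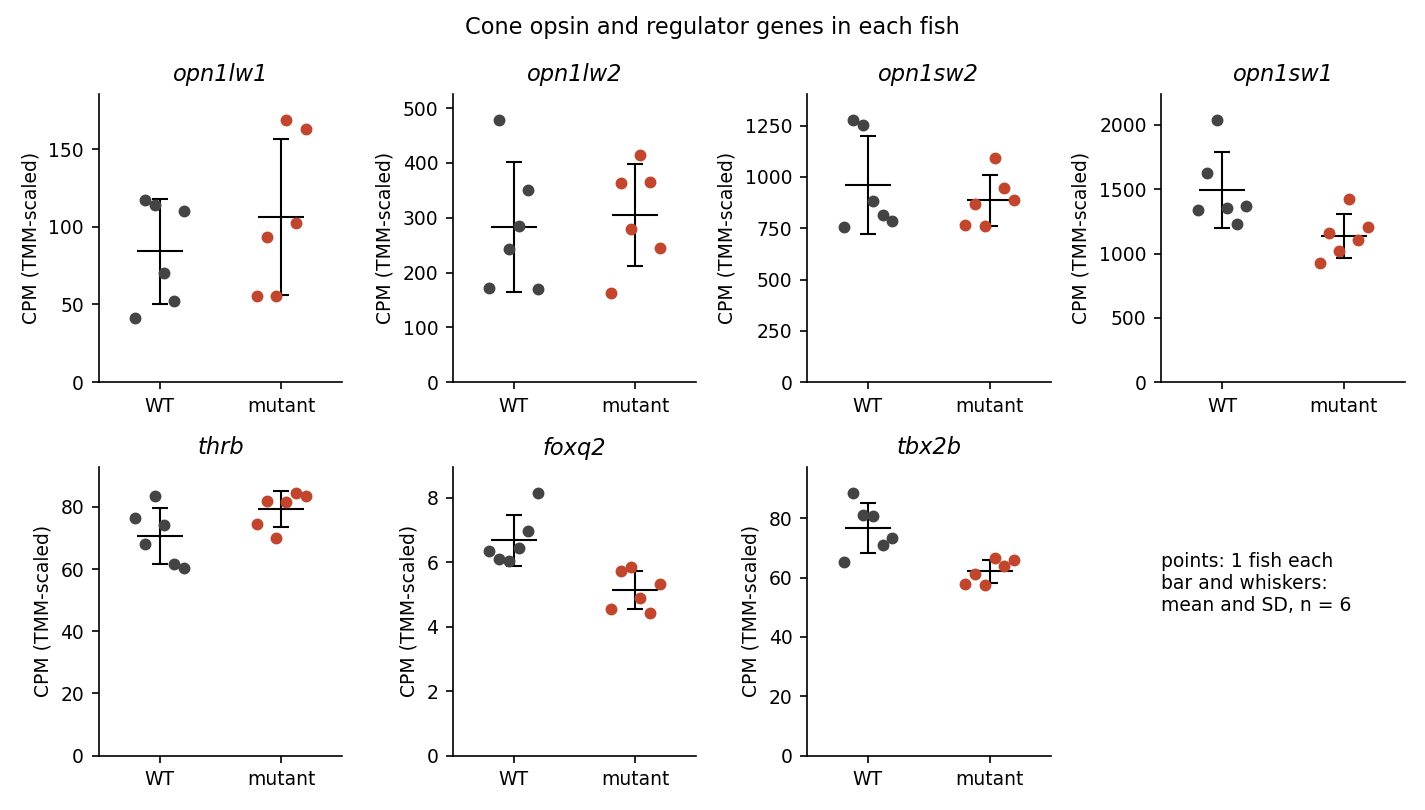
Level of each opsin and regulator gene in the 12 fish, in CPM after TMM scaling, with each axis starting at 0. Points are single fish, and the bar and whiskers are the mean and SD of the 6 fish of a genotype. The genotypes overlap for every gene but foxq2, whose 6 mutant values lie below the lowest WT value of 6.03 CPM.

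The order of mRNA levels was compared as TPM, which divides counts by gene length. UV opsin mRNA stood highest in WT eyes, at 1523 ± 337 TPM (SD, n = 6), followed by blue opsin mRNA at 1224.5 ± 294 TPM (SD, n = 6). In the mutants the means of these opsins were 1255 ± 167 TPM and 1223 ± 144 TPM (SD, n = 6 each), within their spread. Within each fish, opn1sw1 exceeded opn1sw2 in 6 of 6 WT but in 4 of 6 mutant eyes. The red opsin mRNAs were lower, opn1lw2 at 319 ± 123 TPM in WT and 374 ± 111 TPM in mutants, and opn1lw1 at 87.5 ± 34.0 TPM and 119 ± 54.1 TPM (SD, n = 6 each). opn1lw2 exceeded opn1lw1 in all 12 fish, by between 1.63-fold and 7.27-fold.

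The mean levels of the regulators were below those of all 4 opsins. Within single fish the gap was narrowest in WT sample 1, with thrb at 32.5 and opn1lw1 at 38.6 TPM. tbx2b was at 40.5 ± 5.46 TPM in WT and 35.5 ± 2.25 TPM in mutant eyes, and thrb at 33.6 ± 5.30 TPM and 40.8 ± 3.53 TPM (SD, n = 6 each). The order of these neighbours differed by genotype, with tbx2b above thrb in 5 of 6 WT fish and in 0 of 6 mutant fish, a comparison chosen after the values were seen and given without a test. foxq2 was the lowest of the 7 genes, at 12.5 ± 2.06 TPM in WT and 10.4 ± 1.502 TPM in mutant eyes (SD, n = 6 each).

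Red opsin mRNA varied more between fish than that of any other member and was not distinguishable between the genotypes. opn1lw1 had a lowest value of 41.4, a median of 90.2 and a highest value of 117 CPM in WT eyes, and 55.2, 98.0 and 169 CPM in mutant eyes. The ranges overlapped, with 2 mutant fish above and no mutant fish below all WT fish. The log2 fold change was 0.34 with a standard error (SE) of 0.33 and an edgeR adjusted p of 0.549. Its 95% interval of -0.36 to 1.03 reached from 0.778-fold to 2.05-fold, and without WT sample 3 the log2 fold change was 0.45 (edgeR adjusted p = 0.440).

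For opn1lw2, the lowest, median and highest values were 170, 264 and 479 CPM in WT and 163, 322 and 415 CPM in mutant eyes. The groups overlapped over nearly their whole range, and the log2 fold change was 0.11 (SE 0.27, 95% interval -0.47 to 0.68, edgeR adjusted p = 0.836), or 0.082 without WT sample 3 (edgeR adjusted p = 0.891). opn1lw1 had a coefficient of variation of 40.0% in WT and 47.0% in mutant eyes, beside a counting error of 3.62% and 3.26%. For opn1lw2 the observed values were 41.7% and 30.5%, beside a counting error of 1.98% and 1.91%. On the log2 scale, opn1lw1 varied more within genotypes than 95.9% of the 11152 genes with a mean of at least 10 CPM, and opn1lw2 more than 93.5% of them, whereas the corresponding figure was 72.2% for opn1sw2, 60.9% for opn1sw1, 20.3% for thrb and 11.1% for tbx2b.

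The balance between the red opsin genes also varied widely within both genotypes, and no difference between the genotypes was detected. In adult zebrafish these genes are known to be used in different parts of the retina, opn1lw2 in the centre and dorsally and opn1lw1 ventrally and at the margin. The ratio of opn1lw1 to opn1lw2 in TPM ran from 0.137 in WT sample 5 to 0.594 in WT sample 6, and from 0.181 in mutant sample 3 to 0.613 in mutant sample 6. The difference of the mean log2 ratio was 0.17, mutant minus WT (exact permutation test, two-sided, p = 0.680, adjusted p = 0.680 over 4 ratios), and it changed sign when WT sample 5 or mutant sample 6 was left out, to -0.031 and -0.037, while it was 0.30 without WT sample 3. Samples high in one red opsin were not always high in the other, and over the 12 fish, with the genotype means removed, their log2(CPM + 1) values had a Pearson r of 0.378 and a Spearman rho of 0.378, given as a description.

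Blue opsin mRNA did not differ between the genotypes beyond the spread. opn1sw2 had a lowest value of 756, a median of 848 and a highest value of 1278 CPM in WT eyes, and 762, 878 and 1090 CPM in mutant eyes. WT samples 2 and 3 were the highest of all, and the other 4 WT samples lay within the range of the mutants or just below it. The log2 fold change was -0.12 (SE 0.16, 95% interval -0.45 to 0.22, edgeR adjusted p = 0.677), and without WT sample 3 it was -0.012 (edgeR adjusted p = 0.971).

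UV opsin mRNA was lower on average in the mutants, although it missed the threshold after adjustment. opn1sw1 had a lowest value of 1231, a median of 1362 and a highest value of 2041 CPM in WT eyes, and 927, 1131 and 1421 CPM in mutant eyes. Of the 6 mutant fish, 5 lay below the lowest WT fish in CPM, and mutant sample 4 lay above the WT median. In TPM the overlap was wider, with mutant samples 2, 4 and 6 above the lowest WT value of 1226 TPM. The log2 fold change was -0.39 (SE 0.14, 95% interval -0.70 to -0.086), with an unadjusted p = 0.0157 and an edgeR adjusted p = 0.0913. DESeq2 gave -0.38 with an adjusted p = 0.0408. Without WT sample 3, the fish with the highest value, the log2 fold change was -0.27 (edgeR adjusted p = 0.159).

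**Figure D2:**
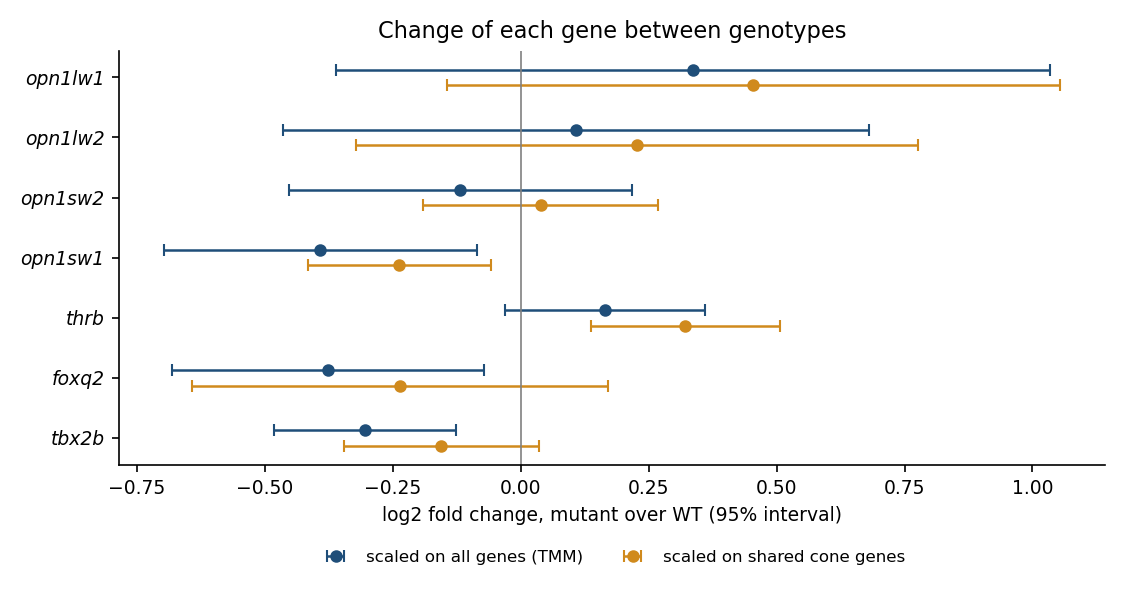
Log2 fold change of each gene, mutant over WT, with its 95% interval from edgeR's quasi-likelihood fit. Libraries were scaled once on all genes and once on a list of shared cone genes. Intervals that leave out 0 in both fits belong to opn1sw1 (-0.39 and -0.24), which passes the adjusted threshold in neither fit.

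Shares within a fish do not depend on how the libraries are scaled. The UV share had a lower and the blue share a higher mean in the mutants, and neither passed after adjustment. Shares are parts of the same total, so a lower UV share goes with a higher sum of the others, and these are not independent results. The mean level of opn1sw2 itself was 1224.5 TPM in WT and 1223 TPM in mutant eyes. The 8 cone opsin genes, with the green opsins opn1mw1 to opn1mw4 summed, were expressed as shares of their total TPM. opn1sw1 made up 33.2% to 43.3% of cone opsin mRNA in WT eyes, with a median of 40.1%, and 31.5% to 35.7% in mutant eyes, with a median of 34.4%. All 6 mutant values were below the WT median, and only WT sample 2 lay within the mutant range. The mean share was 39.2% ± 3.94 in WT and 34.3% ± 1.57 in mutants (SD, n = 6 each; exact permutation test, two-sided, p = 0.0281, adjusted p = 0.0703 over 5 shares). opn1sw2 made up 30.1% to 32.7% in WT and 31.7% to 36.8% in mutant eyes, with medians of 31.0% and 32.9%, and means of 31.2% ± 1.04 and 33.5% ± 1.76 (SD, n = 6 each; exact permutation test, p = 0.0152, adjusted p = 0.0703). All 6 mutant values of the blue opsin share were above the WT median. Without WT sample 3, the differences in mean share were -4.44 percentage points for opn1sw1 and 2.43 for opn1sw2 (exact permutation test, adjusted p = 0.114 and 0.0866), and those of opn1lw1, opn1lw2 and the green opsins had adjusted p values of 0.253 to 0.606 by the same exact test.

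The red opsins together made up 7.51% to 13.3% of cone opsin mRNA in WT eyes, with a median of 10.2%, and 9.17% to 15.2% in mutant eyes, with a median of 13.8%. The means of this summed share were 10.4% ± 2.52 in WT and 13.2% ± 2.21 in mutants (SD, n = 6 each), and their difference was not tested. Taken singly, neither opn1lw1 (2.21% ± 0.750 in WT and 3.16% ± 1.16 in mutants, SD, n = 6 each; exact permutation test, adjusted p = 0.209) nor opn1lw2 (8.14% ± 2.66 and 10.01% ± 2.00, SD, n = 6 each; exact permutation test, adjusted p = 0.225) differed beyond the spread. The summed green opsins had means of 19.3% ± 1.17 and 19.1% ± 0.935 in WT and mutant eyes (SD, n = 6 each; exact permutation test, adjusted p = 0.814). Within that share the single green genes moved in opposite directions, with log2 fold changes of -4.56 for opn1mw1, -0.92 for opn1mw2 and 1.07 for opn1mw3 (adjusted p = 0.00022, 0.00882 and 0.0192 from edgeR). None of the red, blue and UV opsin genes passed that test.

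**Figure D3:**
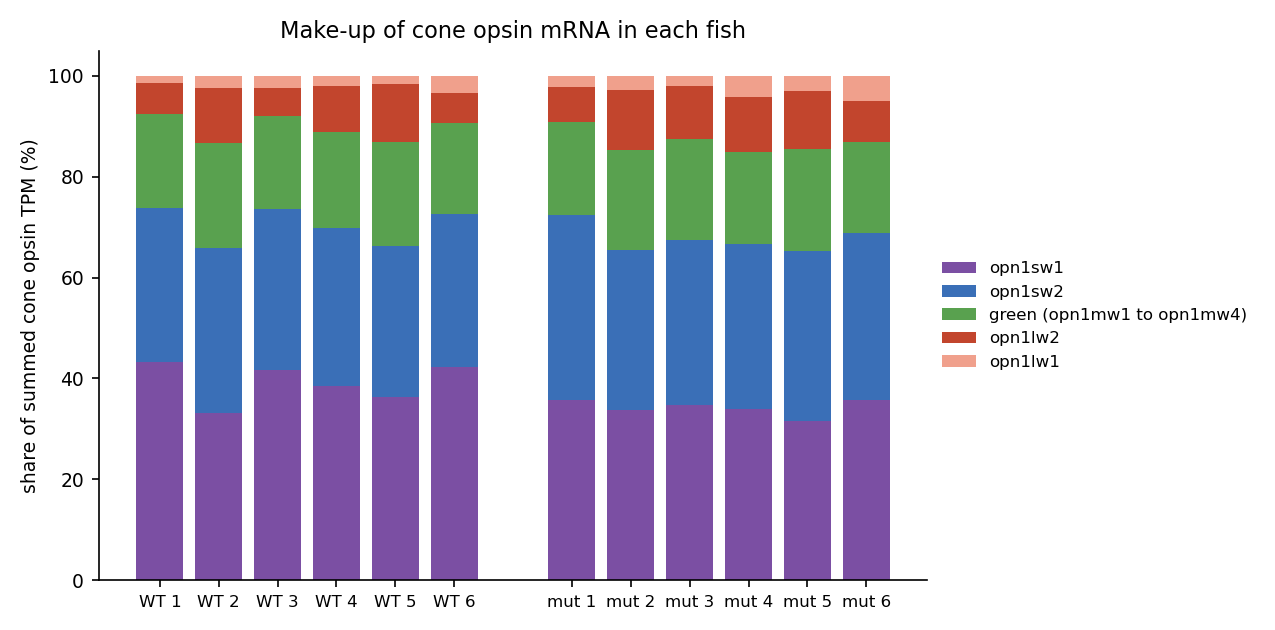
Share of each opsin in the summed TPM of the 8 cone opsin genes, in percent, with 1 bar for each of the 12 fish. The lowest segment, UV opsin opn1sw1, takes 33.2% to 43.3% in WT and 31.5% to 35.7% in mutant eyes, while the green segment stays between 18.1% and 20.8%.

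The 5 shares and 4 ratios of opsin mRNA within a fish were adjusted as separate sets, with no joint adjustment. They draw on the same opsin values and are not independent of each other. Only the ratio of blue to UV opsin passed. It was 0.706 to 0.986 in WT eyes and 0.925 to 1.07 in mutant eyes. All mutant fish were above 5 of the 6 WT fish, and WT sample 2, with 0.986, was the only WT fish within the mutant range. The geometric mean was 0.799 in WT and 0.977 in mutant eyes, a difference of 0.29 on the log2 scale or 1.22-fold (exact permutation test, two-sided, p = 0.0108, adjusted p = 0.0433 over 4 ratios). Without WT sample 3 the difference was 0.28 on the log2 scale (exact permutation test, adjusted p = 0.0693), and of the 12 tests with 1 fish left out, those without WT sample 2, mutant sample 1 or mutant sample 6 still passed, while the other 9 gave adjusted p values of 0.0519 to 0.0866 by the same exact test. The ratio of the summed red opsins to opn1sw1 had a geometric mean of 0.259 in WT and 0.380 in mutant eyes, 1.47-fold higher (exact permutation test, p = 0.0476, adjusted p = 0.0952), and that of red to blue was 0.324 and 0.389 (exact permutation test, adjusted p = 0.260). Without WT sample 3, the log2 differences of these 2 ratios were 0.46 and 0.19 (exact permutation test, adjusted p = 0.190 and 0.476).

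**Figure D4:**
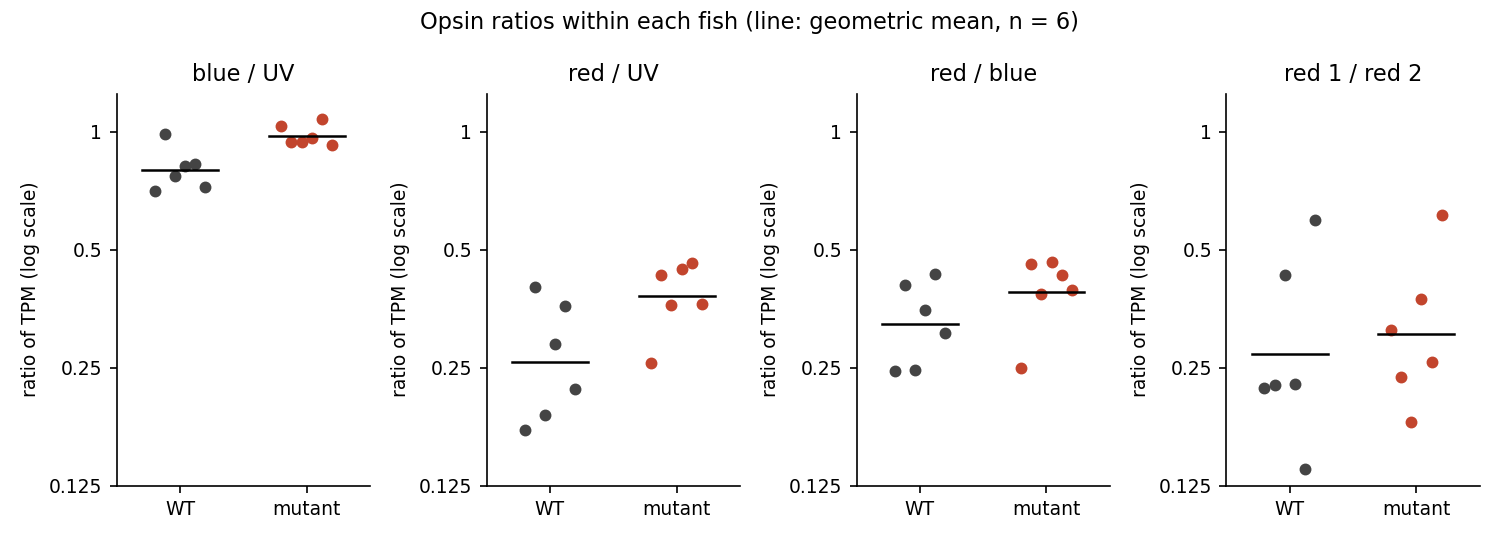
Ratios of opsin mRNA within each fish, as TPM over TPM on a log axis, for blue over UV, red over UV, red over blue and opn1lw1 over opn1lw2. Points are single fish and lines are geometric means of 6 fish. The blue to UV ratio lies between 0.925 and 1.07 in all mutants, above 5 of the 6 WT fish, while opn1lw1 over opn1lw2 ranges widely in both genotypes.

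tbx2b, the regulator needed for UV cones, was the one member that passed in edgeR with all fish and TMM scaling, lower in the mutants, and the call depended on single fish and on the scaling. Its lowest, median and highest values were 65.3, 77.2 and 88.4 CPM in WT eyes and 57.5, 62.6 and 66.5 CPM in mutant eyes. Of the 6 WT fish, 5 lay above every mutant, and only WT sample 1 lay within the mutant range. The log2 fold change was -0.30, or 0.810-fold (SE 0.083, 95% interval -0.48 to -0.13, edgeR adjusted p = 0.0316), with an unadjusted exact permutation p = 0.00649 on log2(CPM + 1), two-sided. With single fish left out, tbx2b no longer passed in 8 of 12 fits, those without WT samples 2, 3, 4 or 6 or without mutant samples 1, 2, 3 or 5, where the adjusted p was between 0.0526 and 0.0808 from edgeR and the log2 fold change between -0.30 and -0.24. It did not pass with library size as the only scaling either (-0.25, edgeR adjusted p = 0.0573). Its close relative tbx2a had a similar difference of -0.29 (SE 0.091, edgeR adjusted p = 0.0548), which did not pass.

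thrb, the thyroid hormone receptor gene of red cones, was slightly higher on average in the mutants, within the spread. The lowest, median and highest values were 60.5, 71.3 and 83.5 CPM in WT and 70.0, 81.8 and 84.4 CPM in mutant eyes. The ranges overlapped widely, and 5 of the 6 mutants were above the WT median. The log2 fold change was 0.17 (SE 0.091, 95% interval -0.030 to 0.36, edgeR adjusted p = 0.263), and without WT sample 3 it was 0.23 (edgeR adjusted p = 0.108).

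foxq2, the regulator of the blue opsin, had lower values in all 6 mutants than in any WT fish after TMM scaling. Of all genes tested, 5.83% did not overlap between the genotypes, 2.14% with the mutants lower and 3.69% with the mutants higher. The values ran from 6.03 over a median of 6.40 to 8.14 CPM in WT and from 4.44 over 5.12 to 5.85 CPM in mutant eyes, which rested on 48 to 79 counts and 38 to 59 counts. The log2 fold change was -0.38 (SE 0.14, 95% interval -0.68 to -0.072, unadjusted p = 0.0188, edgeR adjusted p = 0.102), so it did not pass, nor did it without WT sample 3 (-0.39, edgeR adjusted p = 0.127). At this depth, counting alone gives a coefficient of variation of 12.9% in WT and 14.6% in mutant eyes, close to the 11.9% and 11.7% observed. The separation was also tied to the scaling, since with library size only the highest mutant value, 6.06 CPM, exceeded the lowest WT value, 5.69 CPM, and the genotypes overlapped in TPM as well.

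A list of cone genes, here called the shared cone genes, was then used as a yardstick. The level of a cone gene in a whole eye also moves with the amount of cone RNA. Of 25 such genes listed, 21 were tested, and none passed both thresholds. The 21 included the arrestin genes arr3a and arr3b, which are known to divide by cone type, so not every gene of the list is shared by all cones. At any fold, 4 of the 21 were lower in the mutants and none was higher (background 4.27% lower and 6.92% higher), and the median log2 fold change of the 21 was -0.19. The list was chosen with earlier results of these data known, so its counts beside the background are only a description. The 4 were grk7b, a cone opsin kinase gene, with -0.80, cngb3.1, a subunit of the cone channel, with -0.46, grk1b with -0.45 and gnb3b, a subunit of cone transducin, with -0.45 (adjusted p = 0.0109, 0.00705, 0.0384 and 0.0428 from edgeR). Of the 22 alternative settings, grk7b and cngb3.1 passed in 22, grk1b in 11 and gnb3b in 9. The count without WT sample 3 was 2 lower, grk7b and cngb3.1, and 1 higher, guca1d. For each member, the mean log2(CPM + 1) of the 21 genes was subtracted within each fish.

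Relative to these genes, opn1sw1 was lower in the mutants by 0.23 on the log2 scale, with 5 of the 6 mutants below all WT fish (mean difference to the 21 genes 1.74 ± 0.121 in WT and 1.504 ± 0.0863 in mutants, SD, n = 6 each; exact permutation test, two-sided, unadjusted p = 0.00433, 1 of 7 such comparisons). thrb was higher relative to the same genes by 0.32, with 5 of the 6 mutants above all WT fish (-2.63 ± 0.108 in WT and -2.31 ± 0.134 in mutants, SD, n = 6 each; exact permutation test, unadjusted p = 0.00433). The 21 genes had a median log2 fold change of -0.19, so a gene without change stands higher against them in the mutants. thrb is also expressed outside cones. The share of all genes that differ as much by this measure was not determined. The differences of the other members were smaller against their spread, with -0.14 for tbx2b (exact permutation test, unadjusted p = 0.0779), and with values for foxq2 (-0.17, p = 0.288 by the same exact test), opn1sw2 (0.057, p = 0.604), opn1lw1 (0.46, p = 0.188) and opn1lw2 (0.29, p = 0.329). Without WT sample 3 the differences were -0.20 for opn1sw1 and 0.31 for thrb (exact permutation test, unadjusted p = 0.00866 each), and that of tbx2b was -0.19 (unadjusted p = 0.0216 by the same exact test). Over the 12 tests with 1 fish left out, the unadjusted p was at most 0.0108 for opn1sw1 and 0.00866 for thrb by that exact test. With gnat2, a gene of cone transducin, as the only yardstick, the differences were -0.18 for opn1sw1 and 0.38 for thrb (exact permutation test, unadjusted p = 0.00433 each).

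Scaling all libraries on the 21 cone genes in edgeR, an analysis added after the data had been seen, raised the median log2 fold change of all genes from -0.020 to 0.13. In that fit thrb passed, with a log2 fold change of 0.32 (SE 0.086, adjusted p = 0.0347 over all genes), where 8.58% of all genes passed at any fold, 7.13% higher and 1.45% lower, and 4.72% also had a fold change above the threshold. opn1sw1 was at -0.24 (SE 0.083, adjusted p = 0.0965) and tbx2b at -0.16 (SE 0.089, adjusted p = 0.319) in the same edgeR fit. Which regulator passed therefore depended on whether cone genes or all genes set the scale, whereas the blue to UV ratio within a fish has no such dependence.

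Thyroid hormone and its receptors steer the choice between opsins in fish cones. Of 28 other genes tested that are linked to photoreceptor subtype choice, hormone supply or retinal patterning, 1 passed both thresholds (background 4.55%), and at any fold 4 were higher and 4 lower in the mutants (background 6.92% and 4.27%), with a median log2 fold change of -0.20. This list too was chosen with earlier results of these data known, so its counts beside the background are only a description. The gene that passed was dio3b, a deiodinase that inactivates thyroid hormone. It was at 19.9 to 33.4 CPM in WT and 51.1 to 82.5 CPM in mutant eyes without overlap, a log2 fold change of 1.46 (SE 0.14, edgeR adjusted p = 5.33e-05), which was 1.40 to 1.62 under all 22 alternative settings. The thyroid hormone receptor alpha genes, in the same list, were higher as well, thraa from 18.3 ± 3.43 to 31.4 ± 3.65 CPM and thrab from 112 ± 16.3 to 161 ± 23.3 CPM (SD, n = 6 each), with log2 fold changes of 0.78 and 0.52 (adjusted p = 0.00261 and 0.013 from edgeR). The ranges of both genes did not overlap between the genotypes, 12.2 to 21.2 against 26.2 to 37.2 CPM for thraa and 81.3 to 129 against 134 to 200 CPM for thrab. Of all genes tested, 3.69% likewise had every mutant value above every WT value.

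The other deiodinase genes did not pass, with log2 fold changes of 0.13 for dio3a, -0.19 for dio2, which activates the hormone, and -0.29 for dio1 (adjusted p between 0.395 and 0.589 from edgeR), and neither did the retinoid receptor gene rxrga (-0.21, edgeR adjusted p = 0.322). six7, which zebrafish need for green and blue opsin expression, was at 804 CPM in WT and 702 CPM in mutant eyes (log2 fold change -0.20 and edgeR adjusted p = 0.439), and its partner six6b had a log2 fold change of -0.62 (edgeR adjusted p = 0.056). The orphan nuclear receptor gene nr2f6b was higher (0.77, edgeR adjusted p = 0.0181). skor1a (-0.74), vax1 (-0.70), rxrgb (-0.65) and neurod1 (-0.41) were lower in the mutants, with adjusted p values of 0.0154, 0.0303, 0.0412 and 0.0427 from edgeR. Of the 22 alternative settings, skor1a passed in 21, vax1 in 14, rxrgb in 13 and neurod1 in 6, whereas dio3b, thraa, thrab and nr2f6b passed in 22. When the scale was set by the cone genes, vax1 and neurod1 no longer passed (adjusted p = 0.0506 and 0.12 from edgeR), and without WT sample 3 the count of lower genes was 1 instead of 4, with 4 higher genes in both cases.

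Each regulator was finally set beside the opsin of its cone type across the 12 fish, as log2(CPM + 1) with the genotype means removed, for 4 pairs. tbx2b and opn1sw1 had a Pearson r of 0.670 (permutation p = 0.0164, adjusted p = 0.0655 over 4 pairs) and a Spearman rho of 0.853 (permutation p = 0.00068, adjusted p = 0.00272), of which only the rank correlation passed after adjustment. The r was 0.760 without WT samples 1 and 2, the 2 samples farthest from the median of tbx2b, and it was 0.589 within WT and 0.870 within mutant fish. Without WT sample 3, r was 0.718 (permutation test, adjusted p = 0.0511) and rho 0.764 (permutation test, adjusted p = 0.0342), and rho stayed between 0.755 and 0.891 with each fish left out in turn. With the other opsins, tbx2b had an r of 0.862 with opn1sw2, 0.818 with opn1lw1 and 0.635 with opn1lw2. The values of rho were 0.916, 0.895 and 0.490 in the same order. By both measures, tbx2b was thus closer to opn1sw2 and opn1lw1 than to opn1sw1. Among the 11152 genes with a mean of at least 10 CPM, opn1sw1 came at place 749 by r with tbx2b. The correlation was therefore not particular to this pair. All values of a fish come from 1 library and share its scaling. With library size as the only scaling, the r of tbx2b with opn1sw1 was 0.561 (permutation test, adjusted p = 0.212).

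The other pairs passed by neither measure. thrb had an r of 0.298 with opn1lw1 (rho 0.0909, adjusted permutation p = 0.453 and 0.957) and 0.0727 with opn1lw2 (rho -0.0210, adjusted permutation p = 0.823 and 0.957). Without WT samples 5 and 6, the farthest from the median of thrb, the values of r were 0.418 and -0.0165. Within genotypes, thrb and opn1lw1 had an r of -0.0188 in WT and 0.817 in mutant fish, and thrb and opn1lw2 of -0.139 and 0.4995, in groups of 6 whose difference was not tested. foxq2 had a negative r of -0.493 with opn1sw2 (rho -0.510, adjusted permutation p = 0.209 and 0.189), -0.632 within WT and -0.298 within mutant fish, and -0.315 without WT sample 6 and mutant sample 3. The spread of foxq2 within genotypes was no wider than counting alone gives, so its correlations say little about its expression. With WT sample 3 left out, r was 0.176 and 0.142 for thrb with opn1lw1 and opn1lw2, and -0.416 for foxq2 with opn1sw2.

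**Figure D5:**
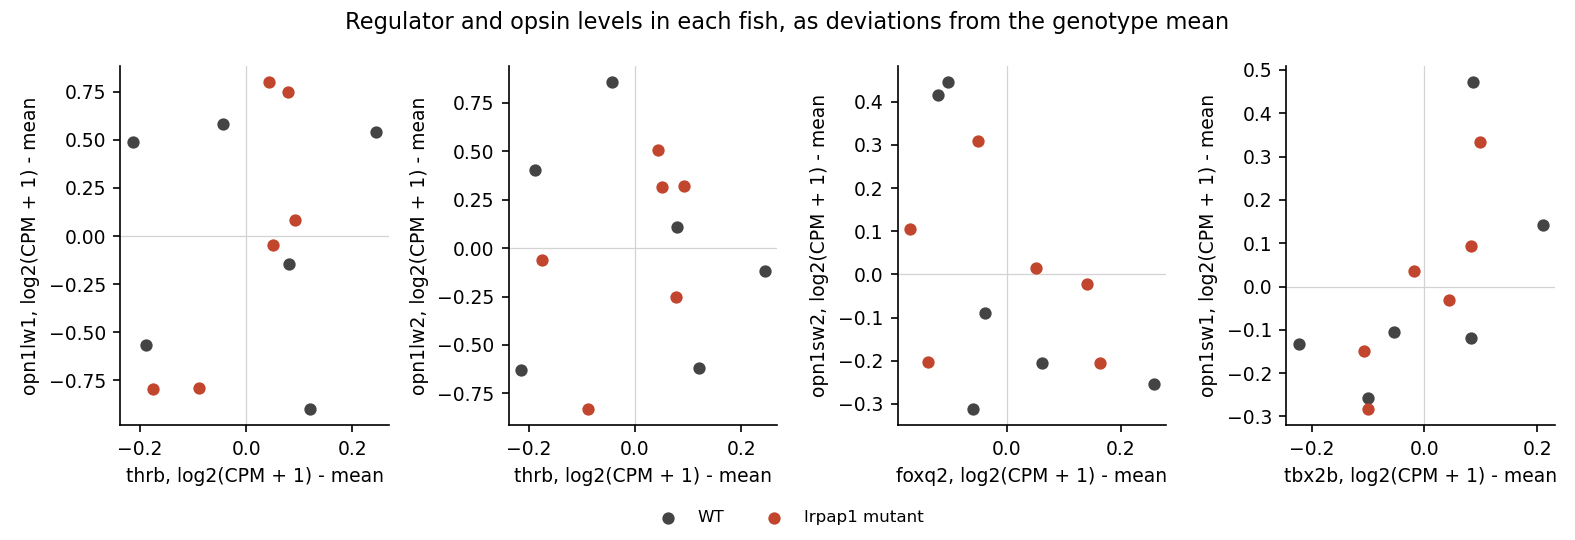
Level of each regulator against the opsin of its cone type in the 12 fish, as log2(CPM + 1) minus the mean of the genotype. tbx2b and opn1sw1 lie along a rising line (r = 0.670), whereas thrb with opn1lw1 (r = 0.298), thrb with opn1lw2 (r = 0.0727) and foxq2 with opn1sw2 (r = -0.493) do not.

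The genes with the most similar pattern over the 12 fish were looked up for each member among the 11152 genes with a mean of at least 10 CPM, as a description. For opn1sw1 they were usp53b (Pearson r = 0.954), rbbp6 (0.943) and gnat2, the alpha subunit of cone transducin (0.941), while opn1sw2 came at place 111 with 0.867. For opn1sw2 they were agfg1a (0.981), fkbp4 (0.967) and eif3hb (0.948). For opn1lw1 they were oxr1a (0.959), rgs3a (0.950) and msl2b (0.946), and for opn1lw2 they were bcan (0.890), amer2 (0.888) and dnaja (0.885). The genes nearest to thrb were rnf44 (0.973) and zbtb20 (0.962), those nearest to tbx2b were wasla (0.926) and tmem198b (0.922), and those nearest to foxq2 were caspb (0.943) and obscna (0.890). For foxq2 such likeness says little, because its spread within genotypes was no wider than counting alone gives. No opsin was among the 2 genes listed for a regulator, but such short lists leave out close ones. For tbx2b, opn1sw2 came at place 38 (0.862) and opn1lw1 at place 97 (0.818) of the 11152 genes. opn1sw1 came at place 749 and opn1lw2 at place 981.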

How the data were processed

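The authors enriched polyadenylated RNA, sequenced it on an Illumina HiSeq instrument, aligned reads to GRCz11 with HISAT2 2.1.0 and deposited raw counts per gene. They also deposited TPM values, which divide counts by gene length and sum to 1000000 per sample. The counting program and its use of strand are not given in the sources used here. Samples were grouped by their labels, with 6 per genotype.

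Counts were fitted in R 4.3.3 with edgeR 4.0.16 (TMM, filterByExpr, quasi-likelihood test, genotype as the only term), with Benjamini-Hochberg adjustment over the 18984 genes that passed. Calls needed an adjusted p under 0.05 and a log2 fold change above 1 in size, the thresholds of the study's methods. DESeq2 1.42.0, limma 3.58.1, other scalings and filters, a replicate block and each sample left out in turn were alternatives. Standard errors were derived from the F statistic. Shares and ratios used TPM and exact permutation tests over 924 assignments. Correlations used 100000 permutations (scipy 1.17.1) and a pseudocount of 1. The fits and tests were checked on simulated data. The NCBI gene numbers of all 7 members matched the same symbols in a RefSeq table, whose coordinates (another build) were not used. Promoter and protein sequences were not used here.

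All 7 members, lrpap1, the called genes and up to 4 others of each list, and the 3 genes (for regulators 2) most similar to each member were named by rule. tbx2a, six7, six6b, rxrga, guca1d, the other deiodinases and further genes that passed were named in addition, after their values were seen. Members and lists were chosen with earlier results of these data known.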

Additional observations from a re-analysis of the deposited data

Results flagged for a closer look

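Of 32 groups of 6 values checked for a fish far from the others of its genotype (CPM of the 7 genes, shares and log2 ratios), 1 stood out, where about 1 in 20, or 1.6, would by chance. Mutant sample 1 had a log2 ratio of red to blue opsin mRNA of -2.005, against -1.38 to -1.11 in the other mutants. That value lay within the WT range of -2.03 to -1.20. The gap to the nearest mutant fish was 0.698 of the whole range of the mutants. This is more than Dixon's test allows for 6 values at the 95% level.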

How the results depend on the processing

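None of the 7 genes passed both thresholds under any alternative run, while the number of genes called overall was 464 with at least 10 counts in every sample, 1525 with DESeq2 and 2124 without a minimum fold, against 864. The number of members with an adjusted p under 0.05 was 1 in the main analysis, 2 with DESeq2 (tbx2b and opn1sw1), 0 with library size only, 0 with the replicate number as a block and 0 to 1 with 1 fish left out. The direction of each member was kept, except that opn1sw2 was at 0.039 on the log2 scale when scaled on the shared cone genes, an alternative chosen after seeing the data, as was leaving out the crystallin genes. The share difference of opn1sw2, mutant minus WT, passed with counts not divided by length (2.47 percentage points) and among the 4 opsins alone (2.71), as did that of opn1sw1 among the 4 opsins (-6.15). With 1 fish left out, the differences were 1.60 to 2.61 for opn1sw2, -6.14 to -4.11 for opn1sw1 and -0.394 to 0.149 for the green opsins. The log2 ratio difference of opn1sw2 over opn1sw1 was 0.26 with medians (exact permutation test, adjusted p = 0.117) and 0.25 to 0.35 with 1 fish left out (adjusted p 0.00866 to 0.0866 by the exact test), and that of red over opn1sw1 was 0.44 to 0.68, and of opn1lw1 over opn1lw2 -0.037 to 0.39. With 1 fish left out, r was 0.636 to 0.739 for tbx2b with opn1sw1 and -0.162 to 0.215 for thrb with opn1lw2. Scaled on library size only, these values of r were 0.561 and 0.0313. The causes were not tested. Equal replicate numbers showed no general pairing, since deviations of same-numbered fish correlated at -0.302 to 0.109. Only 1 of 6 WT fish correlated best with its own number. Under a replicate block, the SE of the opn1lw2 log2 fold change was 0.14 against 0.27 without it. The opn1lw2 log2 fold change was then 0.14 (edgeR adjusted p = 0.580). For opn1lw1 the SE was 0.28 against 0.33, and for the other members it was slightly higher under the block. Pairing of the red opsins alone was not tested. Under the block the adjusted p of tbx2b was 0.0782 from edgeR, and 640 genes were called. The lowest counts were those of foxq2, 38 to 79 per sample.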

Other observations

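The cone arrestin genes, looked at after their values were seen, are known to divide by cone type in zebrafish, arr3a in red and green cones and arr3b in blue and UV cones. arr3a was at 4843 ± 811 CPM in WT and 4673 ± 613 CPM in mutant eyes (SD, n = 6 each). Its log2 fold change was -0.052 (edgeR adjusted p = 0.853), and the sign turned, to 0.099, when scaled on the shared cone genes. That list holds both arrestin genes. arr3b was at 1114 ± 229 CPM and 824 ± 146 CPM (SD, n = 6 each). Its log2 fold change was -0.43 (edgeR unadjusted p = 0.0148, adjusted p = 0.088) and lay between -0.50 and -0.28 under 22 alternatives, of which 2 gave an adjusted p under 0.05. Neither gene passed in edgeR, and the difference between them was not tested.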
